A study of Mus musculus and Homo sapiens with 32 samples.

Results

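Obstructed kidneys of Pcmt1 tKO mice given LY2109761 were set against obstructed kidneys of Pcmt1 tKO mice given DMSO, by bulk mRNA sequencing of kidney tissue. The comparison held 3 libraries of each group, 6 of the 32 samples of the series, chosen by the genotype and treatment in their labels. LY2109761 is a small molecule that inhibits the kinases of the type I and type II TGF-β receptors, and DMSO is the vehicle. UUO, unilateral ureteral obstruction, is the tying of a ureter, a mouse model of renal fibrosis. All 6 libraries carried the tKO genotype of Pcmt1, the gene of an enzyme that repairs isoaspartyl residues in proteins, and all 6 kidneys were obstructed. The other groups of the experiment were tKO sham kidneys with DMSO, Pcmt1 fl/fl UUO kidneys with LY2109761, fl/fl UUO kidneys with DMSO and fl/fl sham kidneys with DMSO, 3 libraries each. What tKO stands for is not written out in the labels. The cells in which Pcmt1 is deleted, the dose and schedule of LY2109761, the days of obstruction and the age of the mice are not given in the sources used here. Nor do the labels say whether the libraries of a group came from separate mice, so the p-values rest on the spread among these libraries alone. That spread was larger than counting noise, with a chi-square of 38 to 58.8 per degree of freedom between libraries of a group.

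TGF-β is secreted as a latent complex and held in the matrix until integrins or proteases free it. The active ligand brings the type II receptor, Tgfbr2, together with the type I receptor, Tgfbr1, which phosphorylates Smad2 and Smad3. With Smad4 these enter the nucleus and act on genes of matrix, matrix cross-linking and feedback inhibition such as Smad7, and in obstructed kidney the pathway is known for driving fibroblasts to deposit collagen.

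Library depth was 15345509 to 17549073 counts with LY2109761 and 17966185 to 18510102 counts with DMSO. Pcmt1 (ENSMUSG00000019795) stood at 23.1, 28 and 27.6 CPM with LY2109761, against 26.1, 24.7 and 26.1 CPM with DMSO (log2 fold change 0.03, SE 0.23, edgeR adjusted p = 0.963), where CPM is the count scaled to the TMM-adjusted size of its library. The groups overlapped, and all 6 values lay below those of the fl/fl UUO libraries with DMSO (35.3 to 41.4 CPM). In the library labelled tKO sham replicate 1, Pcmt1 stood at 49.3 CPM, against 22.7 and 24.3 CPM in the other tKO sham libraries, which goes against its genotype label, since fl/fl sham libraries held 42.8 to 49 CPM. The fl/fl UUO libraries with LY2109761 held 31.3, 25.7 and 39 CPM, so that the library labelled replicate 3 lay within the range of the 6 tKO UUO libraries. Both libraries stayed in the fit under their labels, with counts without them given below, and what is said of levels in tKO sham kidneys holds for replicates 2 and 3 alone as well. Mitochondrially encoded genes took 12.4%, 18.8% and 15.8% of the counts with LY2109761, against 9.88%, 10.6% and 16.2% with DMSO. The difference of 3.43 percentage points gave p = 0.3 in an exact two-sided permutation test, where 3 against 3 cannot go below 0.1. Nnt, a mitochondrial transhydrogenase of which the C57BL/6J strain carries a deletion, stood at 44.1, 0 and 83.1 CPM with LY2109761, against 0, 48.9 and 52.6 CPM with DMSO. It was thus listed at 0 in a library of each group. The defining markers of kidney were present in all 6 libraries, such as Slc34a1 of the proximal tubule at 588 to 772 CPM with LY2109761 and 367 to 467 CPM with DMSO. Ckm of muscle, Cyp11b1 of adrenal cortex and Adipoq of fat stood at 0.448 CPM or less in all 6.

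With LY2109761, 16 genes were higher and 17 lower than with DMSO, of 19256 tested, which is 0.171% of the genes (edgeR quasi-likelihood test over all 18 libraries of the experiment, Benjamini-Hochberg adjusted p under 0.05). The higher genes, 0.0831% of those tested, were led by Gys1, Eef1a1-ps1, Parg and Clcn3 (by fold change among named genes of at least 5 CPM), and also held Cubn of the proximal tubule and the transporter gene Slc16a9. The lower genes, 0.0883% of those tested, were led by Eeig2, Ywhaq, Baz2b, Gngt2, Cx3cr1 and Mgp, and also held the elastic fibre gene Emilin1. In all 33 genes the 3 libraries with LY2109761 lay wholly on the same side of the 3 with DMSO. Without a threshold on the adjusted p, 25.6% of all genes tested had such non-overlapping groups, and 3314 genes (17.2%) had an unadjusted p under 0.05. Of the 33 genes, 22 were protein coding, 10 pseudogenes and 1 a long non-coding RNA. The number called turned on single libraries. It was 282, 9 and 2 without LY2109761 replicates 1, 2 and 3, and 12, 6 and 17 without DMSO replicates 1, 2 and 3. Left-out libraries of other groups moved it too, to 19 and 60 without fl/fl DMSO replicates 2 and 3 and to 64 without tKO sham replicate 1, and a fit of the 12 UUO libraries alone gave 4. All 33 were among the 64. DESeq2 called 898 of the 19256 genes, all 33 among them. Counts for gene lists below are to be read beside these 898 for DESeq2 and the 17.2% for an unadjusted p. Of the called genes named below, Gys1 and Eeig2 lost their call in 1 of the 23 other settings run, Ywhaq in 4, and Adcy1 and Clcn3 in 7. Parg, Cx3cr1 and Rps25-ps1 lost it in 8, Baz2b, Mgp and Rarres2 in 9, and Cubn, Eef1a1-ps1, Gng11, Men1 and Spint1 in 10. It was lost in 11 settings for Cr2, Slc16a9 and Ube2r2, in 12 for Actg-ps1, Emilin1, Gngt2 and Stoml1, and in 13 for Dynlt1b, Rpl14 and Rpl28-ps1, with the sign kept in all of them.

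**Figure D1:**
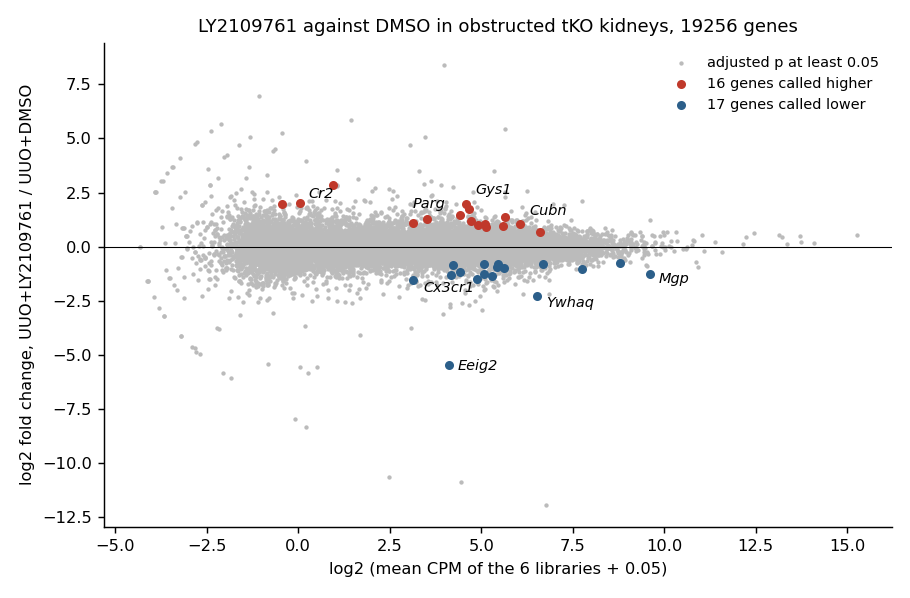
Log2 fold change of UUO+LY2109761 over UUO+DMSO in tKO kidneys (y axis) against the log2 of the mean CPM of the 6 libraries plus 0.05 (x axis), 1 point per gene. The 16 genes called higher (red) and the 17 called lower (blue) are marked; Eeig2 lies at −5.45 and Gys1 at 1.95.

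Promoter sequence is shown for a matrix gene that was called lower, the collagen chain with the smallest p in the matrix list, and a tubular gene that was called higher. Each is the 250 bases before the gene's start in RefSeq, build GRCm38.p6, read along the gene's strand. The GENCODE model of Emilin1 starts further upstream than the RefSeq start used here, so its window lies inside that model. Capitals mark CAGAC, a short element that Smad3 and Smad4 bind, or its reverse complement GTCTG.
Emilin1 (chr5:30913536-30913785, plus strand): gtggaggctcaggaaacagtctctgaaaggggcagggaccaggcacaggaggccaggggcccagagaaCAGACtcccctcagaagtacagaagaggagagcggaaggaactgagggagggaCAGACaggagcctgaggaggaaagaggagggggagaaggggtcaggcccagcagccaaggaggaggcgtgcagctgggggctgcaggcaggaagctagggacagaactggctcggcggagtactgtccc
Col3a1 (chr1:45311288-45311537, plus strand): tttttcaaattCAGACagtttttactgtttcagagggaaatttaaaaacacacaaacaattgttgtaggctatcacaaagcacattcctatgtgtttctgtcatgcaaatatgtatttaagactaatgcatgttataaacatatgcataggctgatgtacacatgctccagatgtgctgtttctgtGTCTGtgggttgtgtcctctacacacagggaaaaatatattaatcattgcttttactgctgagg
Cubn (chr2:13491877-13492126, minus strand): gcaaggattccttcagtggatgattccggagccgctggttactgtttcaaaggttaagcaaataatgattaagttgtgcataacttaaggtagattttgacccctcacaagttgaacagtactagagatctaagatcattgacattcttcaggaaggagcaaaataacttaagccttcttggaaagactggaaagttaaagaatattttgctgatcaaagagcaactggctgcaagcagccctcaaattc
The letters occur at 2 places before Emilin1, at 2 before Col3a1 and at none before Cubn. At least 1 such match was found in 5250 of the 12828 windows of the same length that could be read for genes tested, or 40.9%, so a match is common and says nothing of binding. A window was at hand for 7 of the 17 lower genes and 11 of the 16 higher genes, under 80% of either set, so a share over those sets is void.

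No ligand of the TGF-β family, receptor or Smad passed the test. Tgfb1, the main ligand in injured kidney, stood at 87.3, 70.2 and 76.1 CPM with LY2109761, against 85.2, 126 and 91.1 CPM with DMSO (log2 fold change −0.37, SE 0.21, edgeR adjusted p = 0.379). The lowest DMSO library lay within the range with LY2109761, so the groups overlapped. Tgfb2 stood at 17.1, 20.2 and 13.7 CPM with LY2109761, against 15, 18.9 and 20.1 CPM with DMSO (log2 −0.08, edgeR adjusted p = 0.923). Tgfb3 stood at 12.3, 8.83 and 7.24 CPM with LY2109761, against 12, 14 and 11.5 CPM with DMSO (log2 −0.40, edgeR adjusted p = 0.492). The groups overlapped in both genes. In FPKM, which scales by gene length, Tgfb1 was the highest ligand of the 3 in both groups, at 16.7 ± 2.74 FPKM with LY2109761 and 22.5 ± 4.96 FPKM with DMSO (SD, n = 3 each). All 3 ligands stood above their levels in tKO sham kidneys, where Tgfb1 was at 18.9, 22 and 11.4 CPM.

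Among the receptors, Tgfbr2, the receptor that binds the ligand first, stood at 138, 206 and 187 CPM with LY2109761, against 170.0, 153 and 143 CPM with DMSO (log2 fold change 0.19, SE 0.25, edgeR adjusted p = 0.75). Tgfbr1, the type I kinase, stood at 73.5, 68.1 and 35 CPM with LY2109761, against 96.3, 86.5 and 6.47 CPM with DMSO (log2 fold change −0.10, SE 0.77, edgeR adjusted p = 0.967). DMSO replicate 3 held Tgfbr1 at 6.47 CPM, far under the other 5 libraries. Without that library its log2 fold change was −0.63, and without DMSO replicate 1 it was 0.34. Tgfbr3, the co-receptor betaglycan, stood at 27.6, 51.9 and 31.7 CPM with LY2109761, against 28.9, 26.6 and 27.2 CPM with DMSO (log2 0.43, edgeR adjusted p = 0.4). Eng, the endothelial co-receptor endoglin, stood at 147, 150.1 and 124 CPM with LY2109761, against 160.2, 232 and 216 CPM with DMSO (log2 fold change −0.53, SE 0.18, edgeR adjusted p = 0.147). It was the only receptor of the 5 whose groups did not overlap. Acvrl1, the endothelial type I receptor ALK1, stood at 34, 16.7 and 24.8 CPM with LY2109761, against 37.5, 26.1 and 44.1 CPM with DMSO (log2 −0.51, edgeR adjusted p = 0.373). Of the 5 receptors, edgeR called 0 and DESeq2 called 0, and 1 had an unadjusted p under 0.05.

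The Smads that carry the receptor signal overlapped between the groups. Smad2 stood at 18.2, 40 and 17.6 CPM with LY2109761, against 9.81, 8.98 and 31.3 CPM with DMSO (log2 fold change 0.60, SE 0.49, edgeR adjusted p = 0.567), and a library of each group stood well above its fellows. Smad3 stood at 81.2, 66.4 and 78 CPM with LY2109761, against 78.8, 85.6 and 83.5 CPM with DMSO (log2 fold change −0.14, SE 0.17, edgeR adjusted p = 0.726), and Smad4 at 37.4, 41.9 and 37.1 CPM with LY2109761, against 40.7, 37 and 36.2 CPM with DMSO (log2 fold change 0.03, SE 0.13, edgeR adjusted p = 0.935). These Smad3 and Smad4 values lay close together in all 6 libraries. The inhibitory Smads, induced by the pathway and acting against it, did not separate the groups either. Smad6 stood at 10.6, 9.52 and 6.92 CPM with LY2109761, against 11.1, 9.33 and 12.7 CPM with DMSO (log2 −0.29, edgeR adjusted p = 0.638). Smad7 stood at 29.1, 21.3 and 25.4 CPM with LY2109761, against 27.1, 7.21 and 28.6 CPM with DMSO (log2 0.27, edgeR adjusted p = 0.803), with DMSO replicate 2 at 7.21 CPM. Without that library the log2 fold change of Smad7 was −0.14. Of the 16 Smads and Smad regulators, edgeR called 0 and DESeq2 called 0, and an unadjusted p under 0.05 was reached by 2 higher and 2 lower. The smallest p was that of Zfyve9, the anchor protein SARA that presents Smads to the receptor, at 24, 27.1 and 26.7 CPM with LY2109761, against 17.9, 6.43 and 17.9 CPM with DMSO (log2 fold change 0.88, SE 0.29, edgeR adjusted p = 0.147). Skil, the co-repressor SnoN, stood at 7.24, 7.89 and 52.7 CPM with LY2109761, against 6.59, 7.64 and 5.6 CPM with DMSO, where a single LY2109761 library held the high value (log2 1.77, edgeR adjusted p = 0.21).

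**Figure D2:**
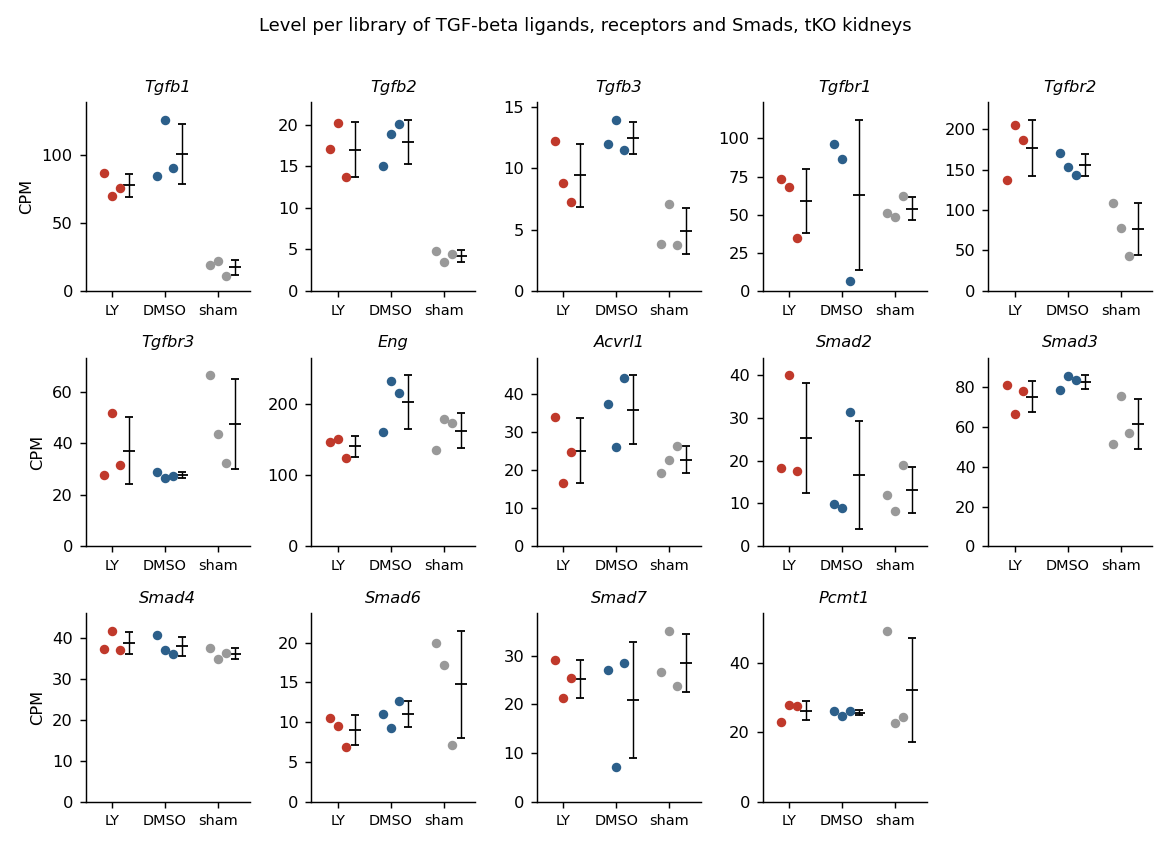
Level in CPM (y axis, from 0) of the TGF-β ligands, receptors and Smads and of Pcmt1 in tKO kidneys with UUO+LY2109761 (LY, red), UUO+DMSO (DMSO, blue) and sham surgery (grey). Points are the 3 libraries of a group and bars the mean ± SD; only Eng shows LY2109761 and DMSO libraries that do not overlap, and Tgfbr1 and Smad7 each have a DMSO library far below the others.

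Genes known to respond to TGF-β mostly lay below DMSO with LY2109761, and none of them passed the edgeR test. Of 27 tested, 19 had a log2 fold change below 0 and 8 above, with a median of −0.27, against −0.01 over all genes tested; DESeq2 called 2 lower. An unadjusted p under 0.05 was reached by 6 lower genes and 1 higher gene, against 17.2% of all genes in either direction. The median was −0.13 without DMSO replicate 3 and −0.16 without LY2109761 replicate 3, and −0.46 and −0.47 without DMSO replicate 2 and LY2109761 replicate 1. Angptl4, a secreted inhibitor of lipoprotein lipase, stood at 45.2, 47 and 37.2 CPM with LY2109761, against 102, 66.7 and 68.1 CPM with DMSO (log2 fold change −0.87, SE 0.22, edgeR adjusted p = 0.0947). Junb, an AP-1 factor, stood at 167, 101 and 94 CPM with LY2109761, against 169, 212 and 251 CPM with DMSO (log2 −0.80, edgeR adjusted p = 0.174). In both genes every LY2109761 library lay below every DMSO library. Of the 13 genes that store or free the latent ligand, Thbs2, a matricellular protein, had the smallest p, at 48.4, 39.3 and 39 CPM with LY2109761, against 66, 97.9 and 60.2 CPM with DMSO (log2 −0.82, edgeR adjusted p = 0.149). Of those 13, edgeR called 0 and DESeq2 called 0, and 1 had an unadjusted p under 0.05; their median of −0.12 turned positive without DMSO replicate 3 or without LY2109761 replicate 3.

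Matrix genes lay below DMSO with LY2109761, by amounts that passed the edgeR test in no member of the matrix list. All 28 genes of the list of fibrillar collagens and interstitial matrix had a log2 fold change below 0, with a median of −0.52, against 50.8% below 0 over all genes tested. In 12 of the 28 the groups did not overlap, against 12.7% over all genes with that direction; 13 had an unadjusted p under 0.05, edgeR called 0 and DESeq2 called 3. The list was described with earlier results of these data known. It shares members with the TGF-β responsive list, such as Col3a1, so the values of these lists are not independent. The summed level of the 28 genes was 3423 to 4399 CPM with LY2109761 and 4857 to 6796 CPM with DMSO. In bulk tissue, fewer cells of a type and less RNA per cell cannot be told apart.

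Col3a1, the chain of type III collagen, stood at 643, 447 and 466 CPM with LY2109761, against 699, 708 and 1453 CPM with DMSO (log2 fold change −0.88, SE 0.27, edgeR adjusted p = 0.132). Col1a1, the main chain of type I collagen, stood at 545, 304 and 364 CPM with LY2109761, against 521, 558 and 917 CPM with DMSO (log2 −0.72, edgeR adjusted p = 0.189). In both collagens DMSO replicate 3 was the highest library, and for Col1a1 the groups overlapped. Loxl1, which cross-links elastic fibres, stood at 49.6, 46.9 and 46.8 CPM with LY2109761, against 76.8, 91.2 and 73.6 CPM with DMSO (log2 fold change −0.75, SE 0.18, edgeR adjusted p = 0.0855). Eln, elastin itself, stood at 42.1, 28.8 and 33.7 CPM with LY2109761, against 59.8, 76.8 and 47.4 CPM with DMSO (log2 fold change −0.81, SE 0.24, edgeR adjusted p = 0.116), and Sparc, a collagen-binding matrix protein, at 646, 551 and 599.6 CPM with LY2109761, against 733, 789.5 and 846 CPM with DMSO (log2 −0.40, edgeR adjusted p = 0.159). These 3 genes had no overlap between the groups.

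Other genes of the matrix outside that list did pass. Mgp (ENSMUSG00000030218; GRCm38 chromosome 6, 136872435 to 136875823), matrix Gla protein, an inhibitor of tissue calcification, fell to 551, 387 and 450.3 CPM with LY2109761, against 1108, 1492 and 710.4 CPM with DMSO (log2 fold change −1.25, SE 0.23, edgeR adjusted p = 0.0413). Every LY2109761 library lay below every DMSO library and above the tKO sham libraries (49.6, 44 and 46.9 CPM). In FPKM it stood at 425.9 ± 98.3 with LY2109761 and 1061 ± 389.7 with DMSO (SD, n = 3 each). Emilin1 (ENSMUSG00000029163; GRCm38 chromosome 5, 30913402 to 30921277), an elastic fibre glycoprotein that in the mouse binds the TGF-β1 precursor, fell to 81.9, 73.7 and 68.6 CPM with LY2109761, against 125, 151 and 113 CPM with DMSO (log2 fold change −0.79, SE 0.14, edgeR adjusted p = 0.0413). Its groups did not overlap. Adamts2, the protease that trims the amino end of procollagen, stood at 28.2, 22.2 and 19.5 CPM with LY2109761, against 37.3, 38.7 and 56.2 CPM with DMSO, just short of the threshold (log2 fold change −0.92, SE 0.18, edgeR adjusted p = 0.0507). Mmp11, a stromal metalloprotease, stood at 31.2, 35.6 and 36.1 CPM with LY2109761, against 50.2, 52.4 and 53 CPM with DMSO (log2 −0.60, edgeR adjusted p = 0.0911). Of the 23 matrix proteases and inhibitors, edgeR called 0 and DESeq2 called 2 lower; an unadjusted p under 0.05 was reached by 5 lower and 1 higher.

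Stromal and endothelial lists leaned the same way, but the groups overlapped in the markers Pdgfrb, Pecam1 and Cdh5. Pdgfrb of stroma stood at 209.4, 160 and 147.4 CPM with LY2109761, against 205.5, 260.8 and 224.4 CPM with DMSO. Pecam1 of endothelium stood at 88, 90.7 and 100.4 CPM with LY2109761, against 84.5, 95 and 105.9 CPM with DMSO. Cdh5 of endothelium stood at 68.7, 57 and 43 CPM with LY2109761, against 51.9, 43.15 and 96.7 CPM with DMSO. Of 20 genes of myofibroblasts, pericytes and stroma, 18 had a log2 fold change below 0 (median −0.49), against 50.8% over all genes. Of these 20, edgeR called 0, DESeq2 called 2 lower, and 5 had an unadjusted p under 0.05, against 17.2% over all genes. The summed level of the 20 genes was 1077 to 1414 CPM with LY2109761 and 1468 to 1784 CPM with DMSO, without overlap. Des, the intermediate filament desmin, stood at 32, 35.2 and 30.7 CPM with LY2109761, against 53.1, 58 and 50 CPM with DMSO (log2 fold change −0.72, SE 0.18, edgeR adjusted p = 0.0911), and Vim, the filament vimentin, at 159, 146 and 139.7 CPM with LY2109761, against 181, 262 and 299 CPM with DMSO (log2 fold change −0.74, SE 0.21, edgeR adjusted p = 0.107). The groups overlapped in neither gene. Of 16 endothelial genes, 15 lay below 0 (median −0.22). Of these 16, edgeR called 0, DESeq2 called 2 lower, and 4 had an unadjusted p under 0.05, against 17.2% over all genes. Their summed level was 755 to 1003 CPM with LY2109761 and 964.6 to 1298 CPM with DMSO, so the groups overlapped. The endothelial median was −0.04 without DMSO replicate 3 and −0.09 without LY2109761 replicate 3, −0.33 without DMSO replicate 1, and −0.38 without DMSO replicate 2 or LY2109761 replicate 2. Cldn5, a tight junction protein of endothelium, stood at 18.5, 14.3 and 11.5 CPM with LY2109761, against 26.3, 21.2 and 29.2 CPM with DMSO (log2 −0.79, edgeR adjusted p = 0.12). Egfl7, a protein that endothelial cells secrete, stood at 74.2, 68.5 and 51.5 CPM with LY2109761, against 91, 95.1 and 108 CPM with DMSO (log2 −0.60, edgeR adjusted p = 0.124). Their groups did not overlap. Gng11 (GRCm38 chromosome 6, 4003904 to 4008445), a G protein gamma subunit, fell to 26.9, 23.9 and 22.2 CPM with LY2109761, against 41.4, 48 and 39.9 CPM with DMSO (log2 fold change −0.82, SE 0.14, edgeR adjusted p = 0.0376). Gng11 is in neither the stromal nor the endothelial list.

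Genes of the proximal tubule, the segment that reclaims filtered protein, glucose and phosphate, lay above DMSO. Of 33 tested, 29 had a log2 fold change above 0, against 49.2% over all genes tested, with a median of 0.53, and in 13 the groups did not overlap, against 12.8% over all genes with that direction. An unadjusted p under 0.05 was reached by 12, all higher; edgeR called 1 and DESeq2 called 4. The summed level of the list was 8839 to 14090 CPM with LY2109761 and 7621 to 10070 CPM with DMSO, so the groups overlapped. The share of mitochondrial counts, which tubule cells are rich in, overlapped as well (12.4% to 18.8% with LY2109761, 9.88% to 16.2% with DMSO), and its part in these values was not tested.

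Cubn (ENSMUSG00000026726; GRCm38 chromosome 2, 13276338 to 13491813), cubilin, the endocytic receptor that takes up albumin with megalin, rose to 72.7, 91.3 and 107 CPM with LY2109761, against 47.3, 41.5 and 42.6 CPM with DMSO (log2 fold change 1.04, SE 0.18, edgeR adjusted p = 0.04). All 3 LY2109761 libraries lay between the DMSO and the tKO sham libraries (151, 197 and 167 CPM). Lrp2, megalin, stood at 195, 265 and 286 CPM with LY2109761, against 142, 141 and 153 CPM with DMSO (log2 fold change 0.77, SE 0.24, edgeR adjusted p = 0.13). Fbp1, a gluconeogenic phosphatase, stood at 68.9, 81.8 and 75.9 CPM with LY2109761, against 37.3, 29.1 and 27.9 CPM with DMSO (log2 fold change 1.26, SE 0.38, edgeR adjusted p = 0.126), and Slc3a1, the heavy chain of the cystine transporter, at 150.4, 145 and 179 CPM with LY2109761, against 124, 113 and 108 CPM with DMSO (log2 0.46, edgeR adjusted p = 0.134). None of these 3 passed, and in all 3 the groups did not overlap. Slc16a9 (ENSMUSG00000037762; GRCm38 chromosome 10, 70245100 to 70285968), a membrane transporter of the monocarboxylate family, rose to 29.4, 43.4 and 47.1 CPM with LY2109761, against 19.6, 18.8 and 20.6 CPM with DMSO (log2 fold change 1.02, SE 0.18, edgeR adjusted p = 0.04). Spint1 (GRCm38 chromosome 2, 119237362 to 119249527), the membrane inhibitor HAI-1 that restrains epithelial serine proteases, rose to 47.7, 72.7 and 68.8 CPM with LY2109761, against 31.8, 28.5 and 38.3 CPM with DMSO (log2 fold change 0.94, SE 0.16, edgeR adjusted p = 0.0376). Every LY2109761 library of Slc16a9 and Spint1 lay above every DMSO library. Neither gene is in the proximal tubule list, where Cubn was the only gene called.

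Havcr1, the tubular injury marker KIM-1, stood at 804, 632 and 980.2 CPM with LY2109761, against 623, 441 and 445 CPM with DMSO (log2 fold change 0.68, SE 0.23, edgeR adjusted p = 0.16), so the LY2109761 libraries were the higher ones and did not overlap with DMSO. Of 26 injury genes, edgeR called 0 and DESeq2 called 0, and 2 higher and 1 lower had an unadjusted p under 0.05. Their median was 0.03 and turned negative without DMSO replicate 2, without LY2109761 replicate 1 or with column totals. In the list for Henle's loop and the distal convoluted tubule, 14 of 17 genes lay above 0 (median 0.22); edgeR and DESeq2 called 0, and 4 had an unadjusted p under 0.05, all higher. That median was 0.08 without LY2109761 replicate 2, and 0.34 and 0.35 without DMSO replicates 1 and 3. Calb1, the calcium-binding protein of distal tubule, stood at 23, 49.9 and 19.6 CPM with LY2109761, against 12.4, 13.4 and 17.9 CPM with DMSO (log2 1.08, edgeR adjusted p = 0.163). In the collecting duct 15 of 16 genes lay above 0 (median 0.34); edgeR called 0, DESeq2 called 1, and 3 had an unadjusted p under 0.05, all higher. The summed level of the list was 538.6, 984 and 491 CPM with LY2109761, against 444, 419.8 and 548 CPM with DMSO. LY2109761 replicate 2 thus stood apart, and without it the median was 0.06. The gene of the list below 0 was the marker Atp6v1g3. It stood at 17.02, 18.54 and 15.61 CPM with LY2109761, against 21.24, 20.51 and 22.55 CPM with DMSO, without overlap. The marker Aqp2 stood at 52.66, 204.1 and 31.76 CPM with LY2109761, against 29.55, 37.53 and 59.87 CPM with DMSO, and overlapped. Kcne1, a potassium channel subunit, stood at 8.79, 13.3 and 10 CPM with LY2109761, against 6.76, 5.87 and 6.06 CPM with DMSO (log2 0.78, edgeR adjusted p = 0.131). Aqp4, a water channel, stood at 15.2, 116 and 8.58 CPM with LY2109761, against 5.09, 2.63 and 16.4 CPM with DMSO (log2 2.53, edgeR adjusted p = 0.141), where LY2109761 replicate 2 alone held the high value.

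Gys1 (ENSMUSG00000003865; GRCm38 chromosome 7, 45434844 to 45456619), the glycogen synthase of muscle and most other tissues, rose to 39.2, 41.2 and 33.5 CPM with LY2109761, against 10.9, 7.6 and 11 CPM with DMSO (log2 fold change 1.95, SE 0.16, edgeR adjusted p = 1.75e-05). The DMSO libraries were the low ones: tKO sham kidneys held 51.3, 59.2 and 52.4 CPM. Fl/fl UUO kidneys held 27.2, 30.6 and 33.4 CPM with LY2109761, against 37.4, 31.4 and 33.5 CPM with DMSO, without such a gap (log2 −0.17, edgeR adjusted p = 0.555). The call was lost in the fit with a replicate block. Genes of fatty acid oxidation lay above 0 in 28 of 33 cases (median 0.25), with 0 called by edgeR and 2 by DESeq2. Of the 33, 8 had an unadjusted p under 0.05, against 17.2% over all genes in either direction. Hadh, a dehydrogenase of mitochondrial β-oxidation, stood at 149, 191 and 187 CPM with LY2109761, against 113, 105 and 98.4 CPM with DMSO (log2 fold change 0.74, SE 0.16, edgeR adjusted p = 0.0783). Acox2, a peroxisomal oxidase, stood at 17.4, 21.3 and 16.4 CPM with LY2109761, against 10.6, 10.8 and 10.5 CPM with DMSO (log2 fold change 0.79, SE 0.19, edgeR adjusted p = 0.0849). Their groups did not overlap.

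Cholesterol synthesis genes lay above 0 in 18 of 20 cases (median 0.35) and did not overlap in 11, all higher, against 49.2% above 0 and 12.8% without overlap in that direction over all genes tested. Of the 20, 7 had an unadjusted p under 0.05, against 17.2% in either direction over all genes; edgeR called 0 and DESeq2 called 2. Sc5d, a late enzyme of the pathway, stood at 25.9, 33.7 and 32.1 CPM with LY2109761, against 21, 20.6 and 20.3 CPM with DMSO (log2 fold change 0.57, SE 0.12, edgeR adjusted p = 0.0724), and Fdft1, squalene synthase, at 20.3, 46.1 and 43.9 CPM with LY2109761, against 15.4, 12.2 and 15.8 CPM with DMSO (log2 fold change 1.34, SE 0.37, edgeR adjusted p = 0.106). Their groups did not overlap. Heat shock genes lay above 0 in 14 of 17 cases (median 0.23), with 0 called by edgeR and 2 by DESeq2. Of the 17, 3 had an unadjusted p under 0.05, about the share over all genes (17.2% in either direction). Hsp90aa1, the inducible cytosolic HSP90, stood at 186, 217 and 192 CPM with LY2109761, against 54.8, 46.7 and 50.8 CPM with DMSO, a clear gap that missed the threshold (log2 fold change 1.97, SE 0.39, edgeR adjusted p = 0.0526). Hsph1, a co-chaperone of HSP70, stood at 72.5, 116 and 60.6 CPM with LY2109761, against 37.2, 42.5 and 48.1 CPM with DMSO (log2 0.97, edgeR adjusted p = 0.0849). In the list of NRF2 and antioxidant genes 22 of 26 lay above 0 (median 0.32). An unadjusted p under 0.05 was reached by 6 higher and 1 lower, against 17.2% over all genes. Of the 26, edgeR called 0 and DESeq2 called 1, a lower gene. The median was 0.16 without LY2109761 replicate 2. Keap1, the inhibitor of NRF2, stood at 33, 39.2 and 34.4 CPM with LY2109761, against 47.8, 54.7 and 48.6 CPM with DMSO (log2 −0.50, edgeR adjusted p = 0.107), and Nfe2l2, NRF2 itself, at 118, 147 and 113 CPM with LY2109761, against 89.7, 72.3 and 84.9 CPM with DMSO (log2 0.62, edgeR adjusted p = 0.134). These 2 genes lay on opposite sides of DMSO, with no overlap in either.

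Genes of immune cells held few calls. Cx3cr1 (ENSMUSG00000052336; GRCm38 chromosome 9, 119901616 to 120069879), the fractalkine receptor of monocytes and macrophages, fell to 22.3, 18.4 and 19 CPM with LY2109761, against 33.9, 53.6 and 56.8 CPM with DMSO (log2 fold change −1.27, SE 0.19, edgeR adjusted p = 0.021). The LY2109761 libraries lay below DMSO and above tKO sham (3.65, 3.84 and 4.78 CPM). Gngt2 (GRCm38 chromosome 11, 95837216 to 95845734), a G protein gamma subunit, fell to 9.83, 10.8 and 10.7 CPM with LY2109761, against 17.4, 38 and 21 CPM with DMSO (log2 fold change −1.29, SE 0.24, edgeR adjusted p = 0.0431), with DMSO replicate 2 the highest library. Gngt2 is in none of the immune cell lists, and neither is Rarres2 (GRCm38 chromosome 6, 48569696 to 48572789), the chemoattractant chemerin. Rarres2 fell to 33.2, 38.5 and 28.1 CPM with LY2109761, against 57, 76.3 and 62.7 CPM with DMSO (log2 fold change −0.97, SE 0.16, edgeR adjusted p = 0.0376). Of 24 genes of macrophages and monocytes, 18 lay below 0 (median −0.27, and −0.11 without DMSO replicate 2). Of these 24, edgeR called 1 and DESeq2 called 2, and 6 had an unadjusted p under 0.05, against 17.2% over all genes. C1qa, a chain of complement C1q that macrophages make, stood at 193, 182 and 188 CPM with LY2109761, against 290.2, 505 and 244 CPM with DMSO (log2 fold change −0.88, SE 0.26, edgeR adjusted p = 0.118), and C1qc at 168, 164 and 169 CPM with LY2109761, against 198, 448 and 197 CPM with DMSO (log2 −0.75, edgeR adjusted p = 0.146). Adgre1, the macrophage marker F4/80, stood at 22.9, 28.2 and 35.7 CPM with LY2109761, against 26.2, 189.7 and 21.3 CPM with DMSO, so DMSO replicate 2 set its fold change (log2 −1.45, edgeR adjusted p = 0.21). Without that library the log2 fold change of Adgre1 was 0.28. The summed level of the macrophage list overlapped between the groups, at 18990 to 23180 CPM with LY2109761 and 18830 to 19580 CPM with DMSO.

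Of 23 genes of T, NK and B cells, 16 lay above 0; edgeR called 0, DESeq2 called 1 lower, and an unadjusted p under 0.05 was reached by 2 higher and 4 lower. Their median of 0.41 was −0.05 without LY2109761 replicate 3 and 0.23 without DMSO replicate 2. Their summed level leaned the other way and overlapped, at 166, 147 and 233 CPM with LY2109761, against 232, 324 and 194 CPM with DMSO. Jchain, the joining chain of secreted antibodies, stood at 3.62, 4.14 and 2.25 CPM with LY2109761, against 25, 16.6 and 14.2 CPM with DMSO, a gap that missed the threshold (log2 fold change −2.47, SE 0.51, edgeR adjusted p = 0.0582). Ighm, the IgM heavy chain, stood at 41.3, 36.4 and 49 CPM with LY2109761, against 46.6, 164 and 46.7 CPM with DMSO (log2 −1.02, edgeR adjusted p = 0.219), with a single high DMSO library. Cr2, the complement receptor CD21 of B cells and follicular dendritic cells, rose to 1.74, 1.53 and 1.45 CPM with LY2109761, against 0.529, 0.345 and 0.273 CPM with DMSO (log2 fold change 2.01, SE 0.35, edgeR adjusted p = 0.04), at low counts. Cr2 is not among the 23 genes of the T, NK and B cell list. Immediate early genes, which cells switch on within minutes of a stimulus, lay below 0 in 18 of 22 cases (median −0.41). Of the 22, 3 had an unadjusted p under 0.05, no larger a share than the 17.2% over all genes. For this list edgeR called 0 and DESeq2 called 1. Ier2 stood at 50.3, 33.2 and 34.3 CPM with LY2109761, against 66.2, 67.9 and 77.8 CPM with DMSO (log2 −0.85, edgeR adjusted p = 0.147), and Nr4a1, an orphan nuclear receptor, at 14.6, 11.2 and 11.5 CPM with LY2109761, against 24.7, 42.6 and 58.6 CPM with DMSO (log2 −1.76, edgeR adjusted p = 0.155). In both the groups did not overlap.

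**Figure D3:**
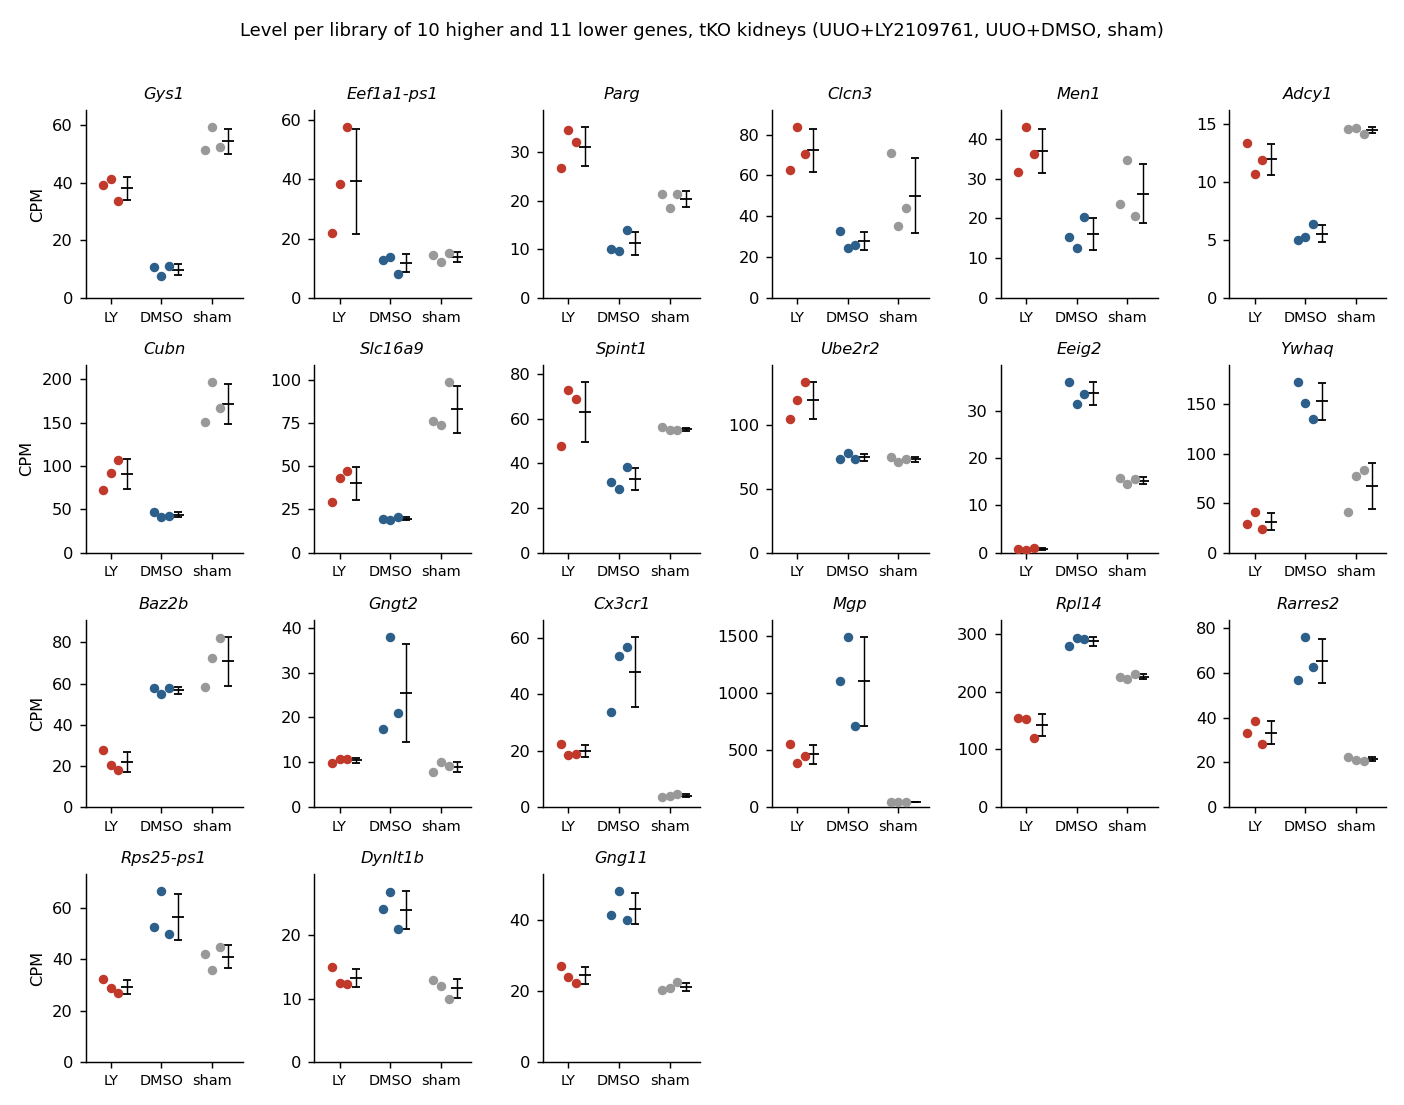
Level in CPM (y axis, from 0) in tKO kidneys with UUO+LY2109761 (LY, red), UUO+DMSO (DMSO, blue) and sham surgery (grey) of the 10 named higher genes and 11 of the lower genes with a mean of at least 5 CPM. Points are the 3 libraries of a group and bars the mean ± SD; LY2109761 and DMSO libraries do not overlap in any panel, and Eeig2 is under 1 CPM in all 3 LY2109761 libraries.

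The largest decrease among the 33 genes was that of Eeig2 (ENSMUSG00000040339; GRCm38 chromosome 3, 108970997 to 109027607), a protein-coding gene of the FAM102 family, which fell to 0.752, 0.641 and 0.912 CPM with LY2109761, against 36.1, 31.4 and 33.7 CPM with DMSO (log2 fold change −5.45, SE 0.35, edgeR adjusted p = 1.34e-06). The tKO sham libraries held 15.8, 14.4 and 15.6 CPM, and fl/fl UUO kidneys held 31.6, 32.1 and 28.9 CPM with LY2109761, against 38.2, 11.8 and 27.9 CPM with DMSO, so only the LY2109761 libraries of tKO kidneys were near 0. Its call too was lost in the fit with a replicate block. Ywhaq (ENSMUSG00000076432; GRCm38 chromosome 12, 21390071 to 21417637), the adaptor protein 14-3-3 theta, fell to 29.1, 41.3 and 23.6 CPM with LY2109761, against 172, 151 and 136 CPM with DMSO (log2 fold change −2.29, SE 0.34, edgeR adjusted p = 0.021). Here the DMSO libraries stood above tKO sham as well (40.7, 77.3 and 83.9 CPM). Baz2b (GRCm38 chromosome 2, 59899363 to 60209839), a chromatin protein with a bromodomain, fell to 27.6, 20.4 and 18.1 CPM with LY2109761, against 57.7, 54.8 and 57.6 CPM with DMSO (log2 fold change −1.37, SE 0.22, edgeR adjusted p = 0.0283). Its tKO sham libraries stood at 58.1, 72.3 and 81.9 CPM, so the LY2109761 libraries were the low ones. Dynlt1b, a light chain of the motor dynein, fell to 14.9, 12.4 and 12.3 CPM with LY2109761, against 24.1, 26.9 and 20.9 CPM with DMSO (log2 fold change −0.86, SE 0.16, edgeR adjusted p = 0.0455), and Stoml1, a stomatin-like membrane protein, to 37.3, 30.9 and 28.2 CPM with LY2109761, against 54.2, 52.4 and 61 CPM with DMSO (log2 fold change −0.80, SE 0.14, edgeR adjusted p = 0.0421).

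The other higher genes have roles in the nucleus, in signalling and in membranes. Parg (ENSMUSG00000021911; GRCm38 chromosome 14, 32201949 to 32297550), which removes poly(ADP-ribose) from proteins, rose to 26.8, 34.6 and 32.1 CPM with LY2109761, against 10.1, 9.67 and 14 CPM with DMSO (log2 fold change 1.47, SE 0.23, edgeR adjusted p = 0.0254). Men1 (GRCm38 chromosome 19, 6334979 to 6340891), the chromatin adaptor menin, rose to 31.7, 42.9 and 36.2 CPM with LY2109761, against 15.2, 12.7 and 20.4 CPM with DMSO (log2 fold change 1.20, SE 0.21, edgeR adjusted p = 0.04). In both the DMSO libraries lay below the LY2109761 libraries, and tKO sham held 21.4, 18.5 and 21.3 CPM of Parg. Clcn3 (GRCm38 chromosome 8, 60910389 to 60983300), an endosomal chloride-proton exchanger, rose to 62.8, 83.5 and 70.3 CPM with LY2109761, against 32.7, 24.6 and 26.1 CPM with DMSO (log2 fold change 1.38, SE 0.22, edgeR adjusted p = 0.0283). Adcy1 (GRCm38 chromosome 11, 7063489 to 7178506), a calcium-stimulated adenylyl cyclase, rose to 13.3, 10.7 and 11.8 CPM with LY2109761, against 4.96, 5.27 and 6.38 CPM with DMSO (log2 fold change 1.11, SE 0.16, edgeR adjusted p = 0.021), near its tKO sham level (14.5, 14.6 and 14.2 CPM). Ube2r2 (GRCm38 chromosome 4, 41135743 to 41193380), a ubiquitin-conjugating enzyme, rose to 105, 119.6 and 134 CPM with LY2109761, against 73, 77.9 and 73.4 CPM with DMSO (log2 fold change 0.67, SE 0.12, edgeR adjusted p = 0.04).

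Genes of the cytosolic ribosome, a class chosen after its values were seen, lay below DMSO in 74 of 81 cases (median −0.44), against 50.8% over all genes tested, and in 46 every LY2109761 library was below every DMSO library, against 12.7%. Of the 81, Rpl14 (GRCm38 chromosome 9, 120571444 to 120574654), a protein of the large subunit, was the only one called; it fell to 154, 153 and 119.9 CPM with LY2109761, against 279, 293 and 291 CPM with DMSO (log2 fold change −1.01, SE 0.19, edgeR adjusted p = 0.0431). Pseudogenes made up 10 of the 33 calls, against 1438 of the 19256 genes tested (7.47%). Rps25-ps1 fell to 32.2, 28.8 and 26.9 CPM with LY2109761, against 52.8, 66.7 and 49.8 CPM with DMSO (log2 −0.95, edgeR adjusted p = 0.0283). Rpl28-ps1 fell to 349, 341 and 301 CPM with LY2109761, against 484, 603 and 593 CPM with DMSO (log2 −0.76, edgeR adjusted p = 0.0431), Eef1a1-ps1 rose to 22, 38.4 and 57.4 CPM with LY2109761, against 12.9, 13.8 and 8.2 CPM with DMSO (log2 1.75, edgeR adjusted p = 0.04), and Actg-ps1 rose to 1.83, 2.42 and 5.68 CPM with LY2109761, against 0.448, 0.475 and 0.456 CPM with DMSO (log2 2.83, edgeR adjusted p = 0.0435). A processed pseudogene shares most of its sequence with the parent gene, so reads may be split between them and these values are uncertain. The median log2 fold change was −0.06 in the fifth of genes with the shortest models and 0.04 in the fifth with the longest; whether model length has a part in the ribosomal values was not tested.

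In fl/fl UUO kidneys the same 2 treatments differed in 991 genes (5.15%), of which 486 (2.52%) were higher and 505 (2.62%) lower with LY2109761 (edgeR, as above). In that genotype the count was 2 without LY2109761 replicate 3, 116 without LY2109761 replicate 1, 47 without DMSO replicate 1 and 264 without DMSO replicate 2. The fl/fl and tKO contrasts share no library. Of the 33 genes called in tKO kidneys, 30 had the opposite sign in fl/fl, 18 passed the test there with the opposite sign, and 0 passed it with the same sign. The 3 with the same sign were Ywhaq, Emilin1 and Cr2. Over all genes tested, 35.8% were below 0 in tKO and above 0 in fl/fl, and 32.9% the reverse. The difference between the genotypes, tested as an interaction, passed in 2666 genes (13.8%), all 33 among them. Nnt stood at 0, 0 and 0 CPM with LY2109761, against 119, 91.1 and 86.2 CPM with DMSO in fl/fl UUO kidneys, so the fl/fl groups did not overlap in a gene in which C57BL/6J carries a deletion, while each tKO group held libraries with and without it. The labels used here give neither the strain nor a batch of each library. A difference in strain background between the fl/fl groups cannot be told apart from the treatment in fl/fl, and its part in the interaction was not tested. Of the 2666, 1299 were below 0 in tKO and above 0 in fl/fl, 1353 the reverse, and 14 had the same sign. Across the 19256 genes the log2 fold changes of the genotypes had a Spearman correlation of −0.45 and a Pearson correlation of −0.31, given as a description, since genes are not independent and all share a fit and its scaling. With libraries scaled by column totals alone, 289 interactions passed. With a library left out, the lowest count was 1340, without fl/fl LY2109761 replicate 3, the library whose Pcmt1 level lay in the tKO range; it was 1408 and 1662 without tKO LY2109761 replicates 3 and 2, 1615 and 1751 without tKO DMSO replicates 2 and 3, 1377 without fl/fl DMSO replicate 1 and 1654 without fl/fl LY2109761 replicate 1.

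Gene lists differed by genotype too. The 28 matrix genes had a median of −0.52 in tKO and 0.46 in fl/fl, and 24 of them were below 0 in tKO and above 0 in fl/fl; 8 interactions passed, all negative, against 6.80% negative over all genes. Eln stood at 48.2, 57.4 and 38.5 CPM with LY2109761, against 20.7, 16 and 23.1 CPM with DMSO in fl/fl UUO kidneys (log2 1.27, edgeR adjusted p = 0.015), and its interaction was −2.08 (edgeR adjusted p = 0.00227). The 33 proximal tubule genes had a median of 0.53 in tKO and −0.43 in fl/fl, and 10 interactions passed, all positive, against 7.05% positive over all genes. Cubn stood at 58.2, 84.6 and 88.2 CPM with LY2109761, against 149.9, 109 and 136 CPM with DMSO in fl/fl UUO kidneys (log2 −0.77, edgeR adjusted p = 0.0291), and its interaction was 1.82 (edgeR adjusted p = 0.00164). Of 81 ribosomal protein genes 40 interactions passed, all negative. Of 27 TGF-β responsive genes 4 passed, all negative, and of the 3 ligands, the 5 receptors and the 13 latency genes 0 passed. The mitochondrial share did not overlap between the fl/fl groups, unlike in tKO, at 12.6%, 16.4% and 12.2% with LY2109761, against 7.67%, 7.43% and 7.43% with DMSO; its part in these differences was not tested.

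**Figure D4:**
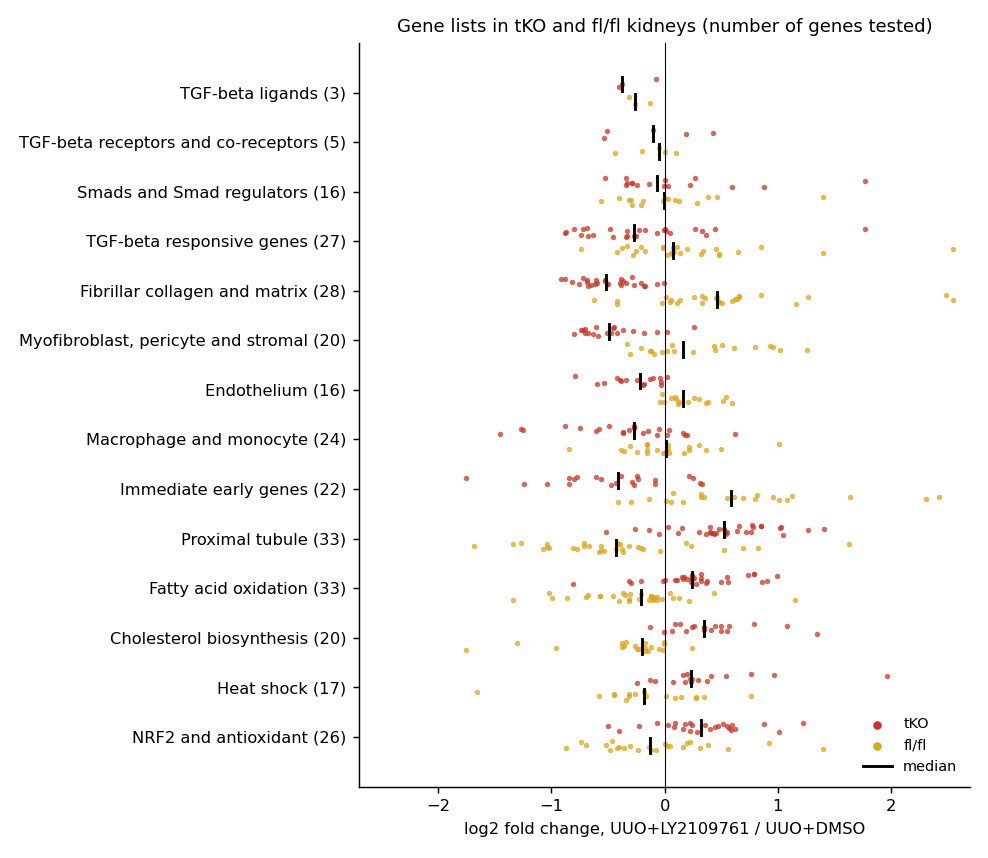
Log2 fold change of UUO+LY2109761 over UUO+DMSO (x axis) of the genes of 14 lists (rows, with the number of genes tested) in tKO (red, upper) and fl/fl kidneys (yellow, lower); bars are medians, and 2 points lie outside the axis. All 28 matrix genes lie below 0 in tKO, and the proximal tubule median is 0.53 in tKO and −0.43 in fl/fl.

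**Figure D5:**
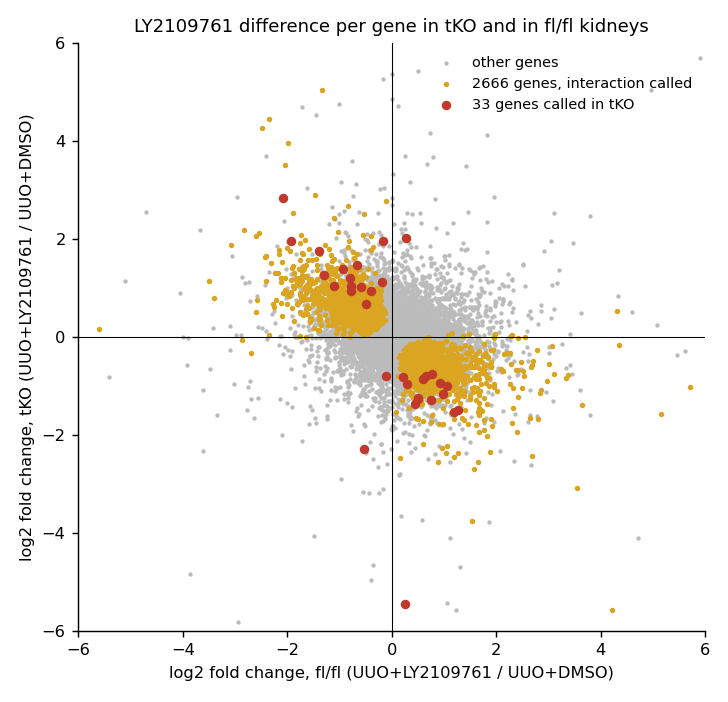
Log2 fold change of UUO+LY2109761 over UUO+DMSO in tKO (y axis) against that in fl/fl kidneys (x axis), 1 point per gene; 15 genes lie outside the axes. The 2666 genes with a called interaction (yellow) fill the upper left and lower right, and 30 of the 33 genes called in tKO (red) lie there.

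Several of the largest interactions came with wide differences inside a group. Bnip3l-ps stood at 0.094, 15.7 and 0.0536 CPM with LY2109761, against 0.0814, 0.0863 and 0.0911 CPM with DMSO, so a single LY2109761 library held it. Derpc, which overlaps Chtf8 so that their reads cannot be told apart without strand, stood at 6.58, 0.0986 and 88.1 CPM with LY2109761, against 0.0814, 0.0432 and 0.137 CPM with DMSO (log2 8.40, edgeR adjusted p = 0.0507). Crispld2, a secreted protein, stood at 0.893, 53.7 and 33.6 CPM with LY2109761, against 45.3, 0.777 and 32.5 CPM with DMSO, and Srcap, a chromatin remodeller, at 119, 6.71 and 99 CPM with LY2109761, against 11.1, 4.27 and 4.42 CPM with DMSO. Each of these 4 genes was far apart within a group of 3. Lrrc19, a leucine-rich membrane protein, stood at 14, 18.9 and 31.3 CPM with LY2109761, against 0.936, 0.345 and 0.638 CPM with DMSO, with all LY2109761 libraries above DMSO (log2 fold change 5.04, SE 1.10, edgeR adjusted p = 0.0748). Golm2 stood at 2.96, 2.07 and 4.61 CPM with LY2109761, against 1.67, 28.8 and 21.7 CPM with DMSO, and Sumo2, a small ubiquitin-like modifier, at 4.51, 4.98 and 10.6 CPM with LY2109761, against 58.9, 61.9 and 9.98 CPM with DMSO. Meg3, an imprinted long non-coding RNA, stood at 3.67, 2.07 and 3.22 CPM with LY2109761, against 7.65, 4.49 and 4.69 CPM with DMSO, and Rn18s-rs5, a copy of the 18S ribosomal RNA, at 15, 6.31 and 6.65 CPM with LY2109761, against 51.1, 38.6 and 23.8 CPM with DMSO (log2 −2.02, edgeR adjusted p = 0.0849). Among the genes tested, a library stood at least 8-fold from both of its fellows in 128 genes with LY2109761 and in 157 genes with DMSO. Only gaps whose higher side reached 5 CPM were counted.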

How the data were processed

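Kidney RNA was extracted with TRNzol and made into libraries with an ABclonal mRNA kit, per the labels' protocols. The tools listed are fastp, HISAT2 and StringTie, per the submitters' processing notes; no source used here gives their versions, the counting step, the annotation or the strand setting. The authors deposited raw read counts per gene, which entered all tests, and FPKM, which the authors scaled by gene length and depth and which were used only for levels between genes. The table's gene positions match GRCm38 (GENCODE M21) for only 1445 of 51933 shared gene IDs, so printed positions are those of M21, looked up by gene ID, and not the table's.

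A single edgeR 4.0.16 fit took in all 18 obstruction and sham libraries, 6 groups of 3 (TMM scaling, filterByExpr by group, quasi-likelihood test, R 4.3.3). It kept 19256 of 57180 genes and had 12 residual degrees of freedom; the common coefficient of biological variation was 0.283. The 525 rows without a symbol stayed in the fit. Tests were LY2109761 against DMSO in tKO, the same in fl/fl, and their difference (interaction), with Benjamini-Hochberg adjustment at 0.05; SE is the absolute log2 fold change over the square root of F. On simulated data of 19256 genes for the tKO comparison, the fit recovered 89% of 4-fold and 46% of 2-fold changes, with 8 false calls. The changes were placed only in genes of at least 5 CPM, with counts drawn from the fit's own spread. Libraries set far from their fellows, as found in the data, were not simulated, so these shares hold for that setting only. Totals of 15345509 to 18510102 counts per library over the 6 libraries set the precision of low counts. Alternatives were RLE scaling, column totals, mitochondrial genes left out, 2 other filters, DESeq2 1.42.0, fits of 12 or 6 libraries, a replicate block and each UUO library left out. Leaving out tKO sham replicate 3 was added after seeing the data.

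Genes were named by rule: Pcmt1 and the TGF-β ligands, receptors and Smads; up to 12 of the largest called changes per direction at 5 CPM or more; up to 4 genes with the smallest p per list; and up to 6 of the largest interactions per direction. A gene that the rule selects is not reported here. Emilin1, Stoml1, Rpl28-ps1, Cr2 and Actg-ps1 were named after their values were seen. The comparison and the 43 gene lists were chosen with earlier results of these data known. Some genes are in several lists, so the lists are not independent of each other. Antisense, overlapping and near-identical genes can share reads.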

Additional observations from a re-analysis of the deposited data

Results flagged for a closer look

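Of the 97 genes looked at by name, 69 had an LY2109761 effect in tKO that differed from that in fl/fl by the edgeR interaction test (adjusted p of the 69 between 1.7e-05 and 0.0494, 2666 of all 19256 genes, or 13.8%, passing). Genes were named partly for their calls, small p or large interactions in these same data. Their share that passed therefore cannot be set against that of all genes. The 69 split into 34 negative and 35 positive values, and in 66 the fold changes of the genotypes had opposite signs. Of all 2666 genes that passed, only 14 had the same sign in both genotypes. Values below are log2 differences, the effect in tKO minus that in fl/fl. In matrix genes they were −2.08 for Eln, −1.73 for Col3a1, −1.20 for Col1a1, −1.75 for Mgp, −1.37 for Adamts2, −0.92 for Mmp11 and −0.68 for Emilin1. In genes of stroma and endothelium and other genes that respond to TGF-β or BMP they were −1.25 for Vim, −0.96 for Des, −1.38 for Cldn5, −1.15 for Egfl7, −1.04 for Gng11, −1.20 for Id3 and −1.21 for Angptl4. In genes of the immune cell lists they were −1.76 for Cx3cr1 and −2.63 for Jchain. Outside those lists, Gngt2 had −2.04 and the chemoattractant gene Rarres2 had −1.26. Ribosomal protein genes and copies had −2.08 for Rpl14, −1.87 for Rps25-ps1 and −1.54 for Rpl28-ps1. The immediate early genes had −4.07 for Nr4a1 and −1.64 for Ier2. The effect was also more negative in tKO by −1.75 for Ywhaq, −1.82 for Baz2b, −1.46 for Stoml1, −1.45 for Dynlt1b, −1.47 for Adm, −1.04 for Gng11 and −0.96 for Bax.

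Positive differences were found in tubule genes, with 1.82 for Cubn, 1.58 for Lrp2, 2.61 for Fbp1, 0.83 for Slc3a1, 1.37 for Havcr1 and 1.07 for Kcne1. Slc16a9 had 1.61 and Spint1 had 1.73, both outside the tubule lists. Genes of metabolism had 2.11 for Gys1, 1.31 for Hadh, 1.10 for Acox2, 1.25 for Atp5f1a, 2.30 for Fdft1, 0.82 for Sc5d and 1.17 for Cth. Stress genes had 3.63 for Hsp90aa1, 1.28 for Hsph1 and 0.97 for Nfe2l2. Genes with other roles had 2.31 for Clcn3, 2.13 for Parg, 2.01 for Men1, 1.30 for Adcy1, 1.17 for Ube2r2, 1.28 for Zfyve9, 1.45 for Hlf, 2.02 for Gbp2 and 1.74 for Cr2.

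The widest differences included genes listed near 0 in whole groups or single libraries, whose fold changes depend on the prior count. Positive ones were 14.1 for Nnt, 12.9 for Bnip3l-ps, 9.77 for Derpc, 6.39 for Lrrc19, 5.77 for Crispld2, 5.54 for Srcap, 4.91 for Actg-ps1 and 3.15 for Eef1a1-ps1. Negative ones were −5.70 for Eeig2, −5.12 for Golm2, −4.29 for Sumo2, −3.88 for Meg3 and −3.85 for Rn18s-rs5. Nnt stood at 0 CPM in all 3 fl/fl LY2109761 libraries, in LY2109761 replicate 2 and DMSO replicate 1 of tKO, and in tKO sham replicate 2.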

How the results depend on the processing

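In the tKO comparison (33 genes: 16 higher, 17 lower), column totals gave 3 (1 and 2), no low-count filter 13 (5 and 8), a stricter filter 53 (29 higher), mitochondrial genes left out 48 (29 higher), DESeq2 898 (424 and 474), the 12 UUO libraries 4 (2 and 2), and the 6 libraries 13 (6 and 7), of which 3 were among the 33. All 33 were among those called with the stricter filter, without mitochondrial genes, with RLE scaling and by DESeq2. Leaving out a library gave 2 to 282 genes (1 to 142 higher, 1 to 140 lower). The replicate block, with 2 residual degrees of freedom, gave 0 genes (0 higher, 0 lower). An unadjusted p under 0.05 in edgeR was reached there by 2165 genes. Same-numbered libraries had deviation correlations of −0.08, −0.08 and −0.13. These rest on deviations of 3 libraries around their own group mean, so they cannot decide whether the numbers pair the libraries. In fl/fl (991: 486 and 505), column totals gave 25 (11 and 14), no filter 360 (153 and 207), DESeq2 2072 (990 and 1082), the 6 libraries 54 (20 and 34), and leave-outs 2 to 1407 (0 to 673 higher, 2 to 734 lower); no block was run there, since the groups share only numbers 1 and 3. For the interaction (2666: 1357 positive, 1309 negative), column totals gave 289 (164 and 125), no filter 1624 (887 and 737), and leave-outs 1340 to 3107 (714 to 1587 and 626 to 1520). The cause of these shifts was not tested. The difference in mitochondrial share was 1.85 to 5.42 percentage points with a library left out.

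Signs turned for these genes, none of them called. Column totals, which moved the median over all genes by −0.07, gave −0.038 for Pcmt1 and −0.041 for Smad4. The replicate block gave 0.48 for Tgfbr1. With a library left out, the log2 fold change ran from −0.024 to 0.12 for Pcmt1, −0.23 to 0.056 for Tgfb2, −0.63 to 0.34 for Tgfbr1, −0.037 to 0.082 for Smad4, −0.14 to 0.56 for Smad7, −1.90 to 0.28 for Adgre1, −0.61 to 0.91 for Nnt, −0.19 to 6.41 for Bnip3l-ps and −0.61 to 0.82 for Crispld2. The medians of the matrix, stromal, proximal tubule, cholesterol and TGF-β responsive lists kept their sign in the 23 settings run, at −0.67 to −0.35, −0.58 to −0.39, 0.37 to 0.64, 0.26 to 0.41 and −0.47 to −0.13.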

Other observations

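Gene lists not described above held no genes called by edgeR in tKO kidneys, and their values follow by role. In the BMP and activin branch 15 of 27 genes lay below 0 with LY2109761 (median −0.05; 5 higher and 4 lower at an unadjusted p under 0.05; DESeq2 called 1 in each direction). Id3, an inhibitor of differentiation that BMP induces, stood at 143, 112 and 107 CPM with LY2109761, against 160.3, 199 and 155 CPM with DMSO (log2 −0.51, edgeR adjusted p = 0.158). Basement membrane genes had a median of −0.01 and 2 at an unadjusted p under 0.05, both lower. Transcription factors of epithelial-mesenchymal transition and cadherins had a median of −0.07, with 1 higher and 1 lower at an unadjusted p under 0.05. Podocyte genes had a median of −0.19 with 0 at an unadjusted p under 0.05. DESeq2 called 0 in each of these last 3 lists. The medians of the basement membrane and transition lists turned positive without DMSO replicate 3.

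Interferon-response genes went both ways. Gbp2, a guanylate-binding protein, stood at 42.2, 59.6 and 85.4 CPM with LY2109761, against 38.2, 36.6 and 25.5 CPM with DMSO (log2 0.90, edgeR adjusted p = 0.0999), so its LY2109761 libraries were the higher ones. Isg15, a ubiquitin-like protein that interferon induces, stood at 14.1, 12.1 and 13.8 CPM with LY2109761, against 22, 32.8 and 19.9 CPM with DMSO (log2 −0.90, edgeR adjusted p = 0.126), so its LY2109761 libraries were the lower ones. Of the 26 genes 16 lay below 0 (median −0.13; 1 higher and 5 lower at an unadjusted p under 0.05; DESeq2 called 1 higher and 2 lower), and without LY2109761 replicate 1 the median was above 0. Inflammatory cytokines and NF-κB targets had a median of −0.03 that turned positive without LY2109761 replicate 2, and 2 of 25 at an unadjusted p under 0.05, both lower. MHC class II genes had a median of 0.09 and 1 of 7 at an unadjusted p under 0.05, and neutrophil genes had a median of −0.24 over 6 with 0. DESeq2 called 0 in these 3 lists. The summed level of the 6 neutrophil genes, of which 4 lay below 0 and 2 above, did not overlap. That sum was 47.62 to 72.17 CPM with LY2109761 and 76.26 to 90.27 CPM with DMSO.

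Nuclear genes of oxidative phosphorylation had a median of 0.07, with 6 higher and 2 lower of 44 at an unadjusted p under 0.05 and 1 called by DESeq2. Atp5f1a, the alpha subunit of ATP synthase, stood at 349.6, 406 and 503 CPM with LY2109761, against 308, 264 and 286 CPM with DMSO (log2 0.55, edgeR adjusted p = 0.13). The 13 mitochondrially encoded genes had a median of 0.44, with 0 at an unadjusted p under 0.05 and 0 called by DESeq2. Glycolysis and hypoxia genes lay above 0 in 20 of 25 cases (median 0.22; DESeq2 called 1 lower), where Adm, the vasodilator adrenomedullin, stood at 5.55, 6.07 and 4.77 CPM with LY2109761, against 7.86, 7.38 and 17.1 CPM with DMSO (log2 −0.98, edgeR adjusted p = 0.107). In the methionine and methyl cycle the median of 0.06 turned negative without LY2109761 replicate 2 and with column totals; Cth, which makes cysteine from cystathionine, stood at 30.4, 35 and 31.6 CPM with LY2109761, against 22.1, 15.3 and 18.7 CPM with DMSO (log2 0.79, edgeR adjusted p = 0.107). DESeq2 called 1 gene of that list, and 3 higher and 2 lower had an unadjusted p under 0.05.

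Cell cycle genes had a median of −0.02, with 2 of 33 at an unadjusted p under 0.05, both lower, and the median turned positive without LY2109761 replicate 2 or DMSO replicate 3. In the p53 and senescence list 14 of 23 genes lay below 0 (median −0.12; 2 at an unadjusted p under 0.05; DESeq2 called 1), and Bax, a pro-apoptotic target of p53, stood at 45.3, 43.6 and 41.1 CPM with LY2109761, against 61.6, 66.1 and 64.2 CPM with DMSO (log2 −0.56, edgeR adjusted p = 0.0911). Unfolded protein response genes had a median of 0.08 (3 of 27 at an unadjusted p under 0.05), and xenobiotic response genes had 0.20 (2 of 17); DESeq2 called 0 in both. Clock genes had a median of 0.19, with 1 of 16 at an unadjusted p under 0.05 and 1 called by DESeq2; Hlf, a clock output factor, stood at 12.7, 13.7 and 16.5 CPM with LY2109761, against 8.71, 9.02 and 7.56 CPM with DMSO (log2 0.76, edgeR adjusted p = 0.0911). The hour of collection is not given in the sources used here.

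Lists of tissues near the kidney gave the following. All 10 urothelial genes lay above 0 (median 0.91; 2 at an unadjusted p under 0.05; DESeq2 called 0). Upk1a, a plaque protein of urothelium, stood at 30.7, 40.7 and 18.2 CPM with LY2109761, against 21, 7.43 and 5.51 CPM with DMSO (log2 1.40, edgeR adjusted p = 0.221). Medians were −0.57 over 2 adrenal genes, 0.25 over 2 muscle genes, −0.32 over 6 erythroid genes and 0.00 over 8 adipose genes. Sex-biased genes of mouse kidney had a median of 0.40 over 15. Single libraries moved several of these medians. Without LY2109761 replicate 2 the median was 0.60 for urothelium, 0.08 for the sex-biased genes, 0.08 for glycolysis, 0.11 for the xenobiotic response, −0.03 for p53 and 0.23 for the mitochondrially encoded genes. Without DMSO replicate 1 that of urothelium was 1.65, and without DMSO replicate 2 that of the clock genes was 0.08. Of the adrenal, muscle, erythroid, adipose and sex-biased lists, edgeR and DESeq2 called 0, and 2 of the sex-biased genes had an unadjusted p under 0.05. The first principal component of the 6 libraries (31.9% of the variance of log2 CPM) ran from 13.1 to 45.4 with LY2109761 and from −59.1 to −18.3 with DMSO.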
